A study of Rattus norvegicus with 58 samples.

Results

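The genes described here are 40 rat genes known as markers of the successive segments of the nephron, the filtering and transporting unit of the kidney. They were chosen by gene symbol, as 5 genes of the podocyte, 15 of the proximal tubule, 5 of the thick ascending limb, 5 of the distal tubule and 10 of the collecting duct. Of the 40, 38 had at least 1 probe set assigned to a single gene symbol, with 56 such probe sets in all, and Slc6a19 and Trpm6 were not matched to a probe set. Pvalb was over its array's 40th percentile of signal on 0 of 29 kidney arrays, so it failed the filter and 37 of the 40 were measured in kidney, among 11204 genes tested there. In liver 20 of the 40 passed the same filter, among 11275 genes tested.

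Male Harlan Sprague-Dawley rats received 4-methylcyclohexanemethanol (MCHM), an alcohol with a saturated carbon ring that is used in coal cleaning, by gavage for 5 days at 0, 0.1, 1, 10, 100, 300 or 500 mg/kg. Kidney and liver RNA was hybridized to Affymetrix rat expression arrays, with 5 control arrays and 4 arrays at each higher dose in each organ, 58 arrays in all. The labels number the arrays of each group as biological replicates, tie no liver to a kidney, give the controls as the same compound at 0 mg/kg, and name neither a vehicle nor an age. Values are log2 RMA values, a background-corrected and normalized summary of each probe set, and a difference of 1 is a doubling of signal on that scale. Precision is limited by these group sizes.

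A pair of kidney arrays stood apart. The mean of 12 measured adipose genes was 10.55 on Biological Rep 3 at 300 mg/kg and 9.597 on Biological Rep 3 at 500 mg/kg, and at most 6.41 on the other 27 kidney arrays. Ucp1, the uncoupling protein of brown fat, was at 13.80 and 12.41 on these arrays and at most 7.34 on the others. Control Biological Rep 2 carried hepatocyte transcripts, with Alb, encoding serum albumin, at 10.19 and a mean of 8.58 over the 3 measured hepatocyte genes, against at most 6.65 on the other kidney arrays. Results at 300 and 500 mg/kg are therefore given with all arrays. Segment medians and some members are also given without both Biological Rep 3 arrays.

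Blood is filtered across the slit diaphragm of the podocyte, and the proximal tubule then takes back most of the salt, phosphate, glucose, amino acids and filtered protein through transporters and endocytic receptors. The thick limb reabsorbs salt without water, the distal tubule fine-tunes sodium, calcium and magnesium, and the collecting duct sets the final water, sodium and acid content of urine. The early proximal tubule, the glomerulus and the distal convoluted tubule lie in the cortex, whereas the straight end of the proximal tubule and most of the thick limb lie in the outer medulla. RNA of a whole organ reflects both how many cells of a type it holds and how much RNA each makes, and fewer cells of a type and less RNA per cell cannot be told apart in these data.

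Promoters are shown for 5 members on which the results turn. Umod and Slc12a1 varied together most closely of the preselected marker pairs, Slc3a1 and Slc7a9 encode the partner chains of a single amino acid transporter and varied in opposite directions between kidneys, and Slc34a1 had the most matches to the motifs searched. The sequences are RefSeq's on build GRCr8, 5′ to 3′ on the gene's strand, from 250 bases before to 50 after the annotated start. They lie at chr1:183260967-183261266 (Umod, minus strand), chr3:132859409-132859708 (Slc12a1, plus strand), chr6:15394700-15394999 (Slc3a1, minus strand), chr1:97246632-97246931 (Slc7a9, plus strand) and chr17:9238934-9239233 (Slc34a1, minus strand). Motifs were searched on both strands: GTTAAT, letters recognised by the tubule transcription factor HNF1, AAAGTCC (HNF4), AAGGTCA (oestrogen-related receptors), TGTTTAC (forkhead factors) and GCGTGGG (WT1 and EGR factors). Capitals mark the exact matches.
Umod: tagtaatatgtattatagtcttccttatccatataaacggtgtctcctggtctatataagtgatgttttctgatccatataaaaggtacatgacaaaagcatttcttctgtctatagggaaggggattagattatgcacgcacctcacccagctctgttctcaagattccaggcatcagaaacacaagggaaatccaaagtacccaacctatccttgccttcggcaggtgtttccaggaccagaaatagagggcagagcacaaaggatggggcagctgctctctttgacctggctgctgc
Slc12a1: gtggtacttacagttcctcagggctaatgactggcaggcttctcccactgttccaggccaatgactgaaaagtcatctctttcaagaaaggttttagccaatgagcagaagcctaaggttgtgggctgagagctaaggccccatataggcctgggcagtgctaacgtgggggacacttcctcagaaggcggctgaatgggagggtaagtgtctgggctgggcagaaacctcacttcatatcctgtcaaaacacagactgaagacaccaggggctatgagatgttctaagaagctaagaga
Slc3a1: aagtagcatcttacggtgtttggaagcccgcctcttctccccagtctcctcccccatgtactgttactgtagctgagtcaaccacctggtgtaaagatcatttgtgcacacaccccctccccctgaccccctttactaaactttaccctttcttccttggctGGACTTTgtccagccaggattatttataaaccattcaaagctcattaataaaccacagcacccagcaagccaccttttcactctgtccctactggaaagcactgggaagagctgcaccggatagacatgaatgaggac
Slc7a9: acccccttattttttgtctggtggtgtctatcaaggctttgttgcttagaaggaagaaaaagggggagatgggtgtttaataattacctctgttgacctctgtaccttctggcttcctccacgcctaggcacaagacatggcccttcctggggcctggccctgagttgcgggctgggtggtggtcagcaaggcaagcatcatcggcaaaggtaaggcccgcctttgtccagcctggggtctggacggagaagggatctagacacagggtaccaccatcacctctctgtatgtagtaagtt
Slc34a1: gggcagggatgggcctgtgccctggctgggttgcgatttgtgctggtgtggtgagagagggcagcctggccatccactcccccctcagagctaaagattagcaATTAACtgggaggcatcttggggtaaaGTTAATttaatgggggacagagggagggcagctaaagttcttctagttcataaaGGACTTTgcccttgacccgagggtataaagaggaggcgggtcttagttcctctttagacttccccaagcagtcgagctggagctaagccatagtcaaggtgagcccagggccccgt

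The promoter table held 37 of the 40 members, with Calb1, Scnn1a and Slc4a1 named only. The HNF1 letters occurred in 3 of 15 proximal tubule promoters (Slc34a1, Slc6a19 and Miox) and in 7.45% of 33469 promoters of the same 300 bases. They also occurred in 1 of 8 collecting duct promoters (Aqp2). The HNF4 letters occurred in 3 of the 15 proximal tubule promoters (Slc34a1, Slc5a1 and Slc3a1) and in 4.63% of all promoters. No match to any of the 5 motifs was found in the windows of the 5 thick limb or the 5 podocyte members. The letters of oestrogen-related receptors occurred in 2 of the 37 members (Amn and Klk1) and in 4.61% of all promoters. Forkhead letters occurred in 3 members (Trpm6, Avpr2 and Atp6v1b1) and in 3.78% of all promoters. WT1 and EGR letters occurred in 1 member (Slc4a4) and in 4.33% of all promoters. No motif contains another, and a match is a description of letters only.

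The first comparison set untreated kidney against untreated liver, which holds no nephron, and checks the members against their labels. In the fit of both organs over 11801 genes, 36 of the 37 members measured in kidney were called higher in control kidney than in control liver (limma, adjusted p under 0.05), and 41.5% of all genes tested were. For 35 of the 37, every one of the 29 kidney arrays lay above every one of the 29 liver arrays, which was so for 24.9% of all genes. The members that passed the filter through kidney alone had to differ, so these counts describe the labels.

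The largest differences, by the rule for named genes, belonged to the thick limb and to proximal and distal transporters. Slc12a1, the sodium-potassium-chloride cotransporter of the thick limb that loop diuretics block, averaged 11.88 ± 0.60 in control kidneys and 2.48 ± 0.23 in control livers (SD, n = 5 each), a difference of 9.39. Umod, uromodulin, the protein that thick limb cells shed into urine, averaged 13.45 ± 0.35 in control kidneys and 4.61 ± 0.36 in control livers (SD, n = 5 each), a difference of 8.84 (SE 0.20). Calb1, the calcium-buffering calbindin of the distal tubule, differed by 8.68. Slc3a1, the heavy chain of the cystine and dibasic amino acid transporter, differed by 8.54 (SE 0.12), and Slc34a1, the main phosphate cotransporter of the proximal tubule, by 8.17 (SE 0.11). Slc12a1 and Calb1 did not pass the filter in liver, where their values are near the arrays' floor, so their differences and their place in the order depend on that floor and no test of them is given.

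The smallest differences were those of Scnn1a, Slc5a1, Synpo, Scnn1b and Dpep1. Scnn1a, the alpha subunit of the epithelial sodium channel, averaged 4.80 ± 0.14 in control kidneys and 4.97 ± 0.13 in control livers (SD, n = 5 each) on the probe set that was brighter over both organs, a difference of -0.16 (SE 0.09, adjusted p = 0.103). Its other probe set, which was the brighter in kidney and is used for the dose comparisons, averaged 5.36 over the 29 kidney arrays and 4.02 over the 29 liver arrays. The probe sets of Scnn1a thus disagree on whether kidney is higher. Slc5a1, the high-affinity glucose cotransporter of the late proximal tubule, did not pass the filter in liver and differed by 0.75, and its lowest kidney array, at 4.83, lay just under its highest liver array, at 4.84. Synpo, the actin-binding synaptopodin of podocyte foot processes, differed by 1.47 (SE 0.16), Scnn1b, the beta subunit of the sodium channel, by 1.51 (SE 0.14), and Dpep1, a brush border dipeptidase, by 1.53 (SE 0.13).

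**Figure D1:**
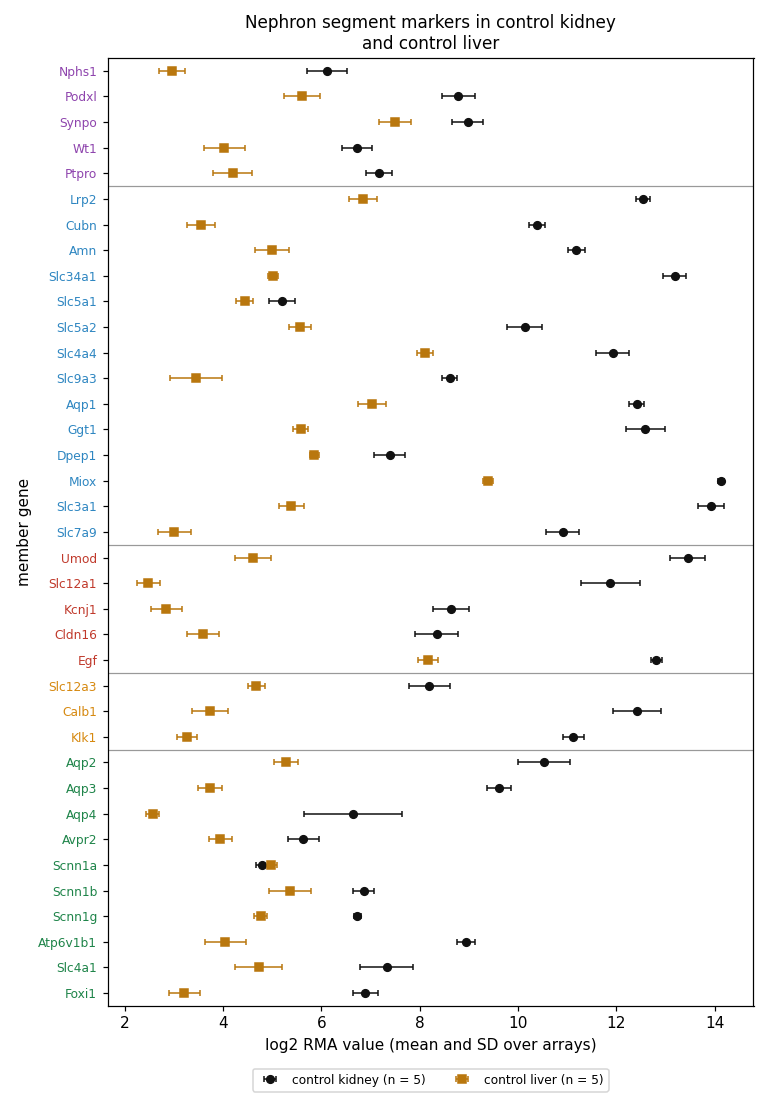
Mean log2 RMA value (horizontal axis, bars are SD over 5 arrays) of each member in control kidney (circles) and control liver (squares), by segment from podocyte at the top to collecting duct at the bottom. Kidney lies to the right of liver for every member drawn except Scnn1a, at 4.80 in kidney and 4.97 in liver.

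The main comparison set each dosed group of kidneys against the 5 control kidneys. No nephron marker was called at any dose. By limma's adjusted test 0 of 37 members passed at 0.1, 1, 10 and 100 mg/kg, where 0% of all genes did, and 0 of 37 passed at 300 and at 500 mg/kg, where 0.0268% of all genes did. Without adjustment, 11, 8, 1, 2, 3 and 1 members had p under 0.05 from 0.1 to 500 mg/kg, beside 8.14%, 9.33%, 6.27%, 4.81%, 5.74% and 9.58% of all genes in the same order. In limma's trend over the dose ranks 0 of 37 members were called, where 0.152% of all genes were, and 0 had an unadjusted p under 0.05, where 9.76% of all genes did. In that trend the smallest adjusted p of the members was that of Slc5a1 (adjusted p = 0.525).

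The precision of these negative results differs between members. The 95% interval of a change reached 0.28 on the log2 scale to either side in the median member, and 0.19 in the median gene tested. It was narrowest for Miox, which breaks down inositol in the proximal tubule, at 0.08 to either side, and widest for Aqp4, a water channel of the collecting duct, at 0.92. A p that misses the threshold does not show that a member was unaltered, and for Aqp4 a change of under 0.92 to either side is not distinguishable from none. The change of Aqp4 at 0.1 mg/kg was -1.049, the largest of any member at any dose. Its 95% interval there lay below 0, but Aqp4 did not pass the adjusted test.

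**Figure D2:**
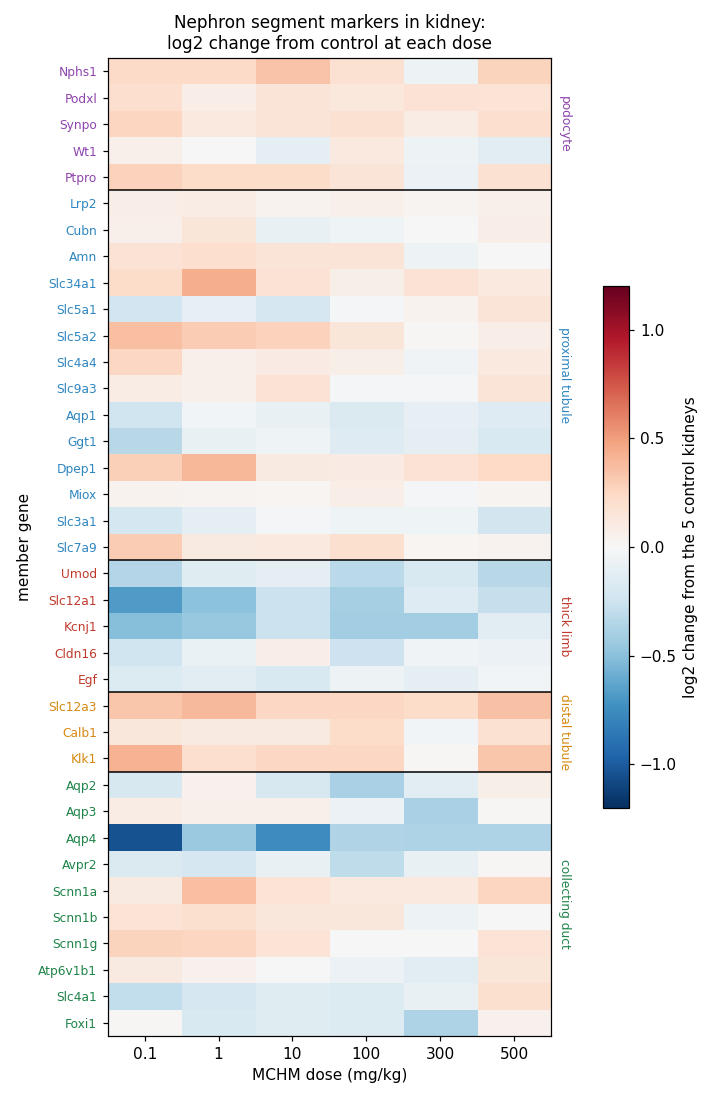
Log2 change from the 5 control kidneys (colour, red higher and blue lower) of the 37 measured members (rows, by segment) at 6 doses (columns, mg/kg). The thick limb rows are mostly blue at each dose. The distal tubule rows are mostly red, but their median change at 300 mg/kg was only 0.01. The adjusted test passed 0 of the 37 members at any dose.

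In the podocyte, median changes over the 5 members were 0.23, 0.12, 0.16, 0.16, -0.06 and 0.18 from 0.1 to 500 mg/kg. Without both Biological Rep 3 arrays the medians were 0.05 at 300 mg/kg and 0.13 at 500 mg/kg. Synpo was at 9.23, 9.18, 9.39 and 8.88 at 500 mg/kg, against 9.50, 8.94, 8.71, 8.88 and 8.83 in control kidneys. The highest array was a control and the groups overlap, with a change of 0.20 (95% interval -0.07 to 0.47, adjusted p = 0.644). Ptpro, a receptor phosphatase of the podocyte surface, was at 7.47, 7.20, 7.46 and 7.25 at 500 mg/kg, against 7.58, 7.24, 6.92, 7.04 and 7.02 in control kidneys, a change of 0.18 (adjusted p = 0.646). Without both Biological Rep 3 arrays Synpo had 0.13 and Ptpro 0.14 at 500 mg/kg. At 300 mg/kg Podxl, the negatively charged coat protein podocalyxin, was at 8.99, 8.99, 8.90 and 8.96, against 9.31, 8.71, 8.79, 8.75 and 8.36 in control kidneys. The dosed arrays lay within the range of the controls, and the change was 0.17 (adjusted p = 0.881), or 0.07 without control Biological Rep 5. Nphs1, the slit diaphragm protein nephrin, and Wt1, a transcription factor that podocytes keep into adulthood, had values of 0.27 and -0.13 at 500 mg/kg (adjusted p = 0.680 and 0.841).

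In the proximal tubule, median changes over the 14 measured members stayed between -0.01 and 0.09 at the 6 doses, with all genes between -0.003 and 0.020. Without both Biological Rep 3 arrays the members' medians were 0.03 at 300 mg/kg and 0.01 at 500 mg/kg. Slc3a1 was at 13.81, 14.03, 13.20 and 13.78 at 500 mg/kg, against 13.49, 13.97, 14.14, 13.91 and 14.10 in control kidneys. The lowest value was that of Biological Rep 3, and the change was -0.22 (95% interval -0.48 to 0.04, adjusted p = 0.601). Without both Biological Rep 3 arrays it was -0.05 (adjusted p = 0.964). Aqp1, the water channel of the proximal tubule and thin descending limb, was at 12.25, 12.52, 12.08 and 12.19 at 500 mg/kg, against 12.15, 12.45, 12.56, 12.48 and 12.42 in control kidneys, a change of -0.15 (adjusted p = 0.613), or -0.09 without those arrays.

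Slc34a1 was at 13.59, 13.43, 13.26 and 13.12 at 300 mg/kg, against 13.35, 13.40, 12.80, 13.18 and 13.18 in control kidneys, a change of 0.17 (adjusted p = 0.872). Its other, dimmer probe set gave 0.67 (SE 0.15, adjusted p = 0.377 over all probe sets) at that dose, so the size of the difference depends on the probe set. Slc34a1 also had the smallest p of any member at any dose, a value singled out after it was seen. It was at 13.68, 13.66, 13.40 and 13.72 at 1 mg/kg, with all 4 arrays above the highest control, which is also 13.40 after rounding, a change of 0.43 (SE 0.11, adjusted p = 0.341). Slc34a1 and Scnn1g were the members whose arrays did not overlap the controls at 1 mg/kg, 2 of 37, where 1.92% of all genes showed this. At 0.1 mg/kg it was Scnn1g alone, 1 of 37, where 1.87% of all genes did, and at 10, 100, 300 and 500 mg/kg 0 members did, where 1.63%, 1.45%, 1.38% and 3.19% of all genes did.

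The endocytic receptors and the glucose and bicarbonate carriers had values between 0.002 and 0.15 at 500 mg/kg. Lrp2 and Cubn, megalin and cubilin, which take up filtered proteins, had changes of 0.06 and 0.08, and Amn, the membrane anchor of cubilin, 0.002. Slc5a2, the glucose cotransporter that gliflozin drugs block, had 0.08, Slc5a1 0.15 (95% interval -0.09 to 0.40), Slc4a4, the basolateral sodium-bicarbonate cotransporter, 0.11, and Slc9a3, the apical sodium-proton exchanger, 0.15. Miox, the steadiest member, was at 14.20, 14.15, 14.17 and 14.14 at 500 mg/kg, against 14.09, 14.19, 14.05, 14.14 and 14.18 in control kidneys, a change of 0.03 (95% interval -0.05 to 0.11).

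In the thick limb, median changes over the 5 members were -0.35, -0.15, -0.19, -0.32, -0.15 and -0.13 from 0.1 to 500 mg/kg, and the values of all 5 were below 0 at each dose except 10 mg/kg, where 4 were. All doses share the same 5 control arrays, and the segment means of these controls ran from 10.50 to 11.39. Umod was at 13.07, 13.53, 12.37 and 13.49 at 500 mg/kg, against 12.88, 13.47, 13.79, 13.42 and 13.68 in control kidneys. Biological Rep 3 held the lowest value of all 29 kidneys and the groups overlap, with a change of -0.33 (95% interval -0.74 to 0.08, adjusted p = 0.618). Slc12a1 was at 11.30, 12.08, 10.83 and 12.20 at 500 mg/kg, against 10.88, 12.15, 12.43, 11.80 and 12.11 in control kidneys, a change of -0.27 (95% interval -0.86 to 0.32, adjusted p = 0.799).

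Without both Biological Rep 3 arrays the thick limb medians were 0.008 at 300 mg/kg and 0.006 at 500 mg/kg, with 3 of 5 members above 0 at each. Umod then had -0.08 and Slc12a1 -0.02 at 500 mg/kg (adjusted p = 0.964 and 0.995). Kcnj1, the potassium channel ROMK that recycles potassium into the lumen, had the smallest p of the segment at 300 mg/kg. It was at 8.20, 8.21, 7.84 and 8.65, against 8.30, 8.48, 9.23, 8.71 and 8.47 in control kidneys, a change of -0.41 (95% interval -0.78 to -0.05, adjusted p = 0.831), or -0.29 without Biological Rep 3. The part that adipose RNA on these arrays has in the values was not tested. Cldn16, a tight junction protein for magnesium and calcium, and Egf, the epidermal growth factor precursor, had -0.07 and -0.04 at 500 mg/kg.

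In the distal tubule, median changes over the 3 measured members were 0.33, 0.21, 0.24, 0.25, 0.01 and 0.33 from 0.1 to 500 mg/kg. Without both Biological Rep 3 arrays the medians were 0.07 at 300 mg/kg and 0.22 at 500 mg/kg. Slc12a3, the sodium-chloride cotransporter that thiazides block, was at 8.74, 8.18, 8.78 and 8.47 at 500 mg/kg, against 8.70, 8.33, 7.56, 8.20 and 8.18 in control kidneys. A single control, Biological Rep 3 at 7.56, lay well under the rest, and the change was 0.35 (95% interval 0.01 to 0.69, adjusted p = 0.503), or 0.19 without that control. At 300 mg/kg Slc12a3 was at 8.64, 8.36, 8.14 and 8.52, a change of 0.22 (adjusted p = 0.894), or 0.06 without the same control. Klk1, kallikrein secreted by the connecting tubule, was at 11.75, 10.99, 11.77 and 11.29 at 500 mg/kg, against 11.49, 10.98, 11.04, 11.10 and 10.997 in control kidneys, a change of 0.33 (95% interval -0.01 to 0.67, adjusted p = 0.541). Without both Biological Rep 3 arrays Klk1 had 0.22 and Slc12a3 had 0.27 at 500 mg/kg. With all arrays Calb1 had 0.18 at that dose (adjusted p = 0.788).

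In the collecting duct, median changes over the 10 members were 0.05, 0.05, -0.05, -0.12, -0.11 and 0.06 from 0.1 to 500 mg/kg. Without both Biological Rep 3 arrays the medians were -0.05 at 300 mg/kg and 0.06 at 500 mg/kg. Aqp3, the water channel on the blood side of principal cells, had the smallest p of any member at 300 mg/kg. It was at 9.59, 9.24, 8.79 and 9.27 there, against 9.82, 9.69, 9.82, 9.30 and 9.42 in control kidneys. Biological Rep 3 was the lowest array, and the change was -0.39 (95% interval -0.65 to -0.12, adjusted p = 0.698), or -0.24 without it. At 500 mg/kg Aqp3 had 0.01, so the value at 300 mg/kg was not shared by the higher dose.

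Scnn1a was at 5.65, 5.30, 5.57 and 5.33 at 500 mg/kg, against 5.21, 5.24, 5.38, 4.94 and 5.24 in control kidneys, a change of 0.26 (95% interval -0.06 to 0.58, adjusted p = 0.620), and its other probe set gave -0.13. Scnn1g, the gamma subunit of the channel, was at 6.92, 6.70, 6.94 and 7.001 at 500 mg/kg, against 6.75, 6.65, 6.66, 6.78 and 6.799 in control kidneys, a change of 0.16 (adjusted p = 0.622). Foxi1, the transcription factor of intercalated cells, and Atp6v1b1, a subunit of their proton pump, had -0.37 and -0.13 at 300 mg/kg and 0.06 and 0.15 at 500 mg/kg. Aqp2, the vasopressin-regulated water channel, and Avpr2, the vasopressin receptor, had 0.07 and 0.01 at 500 mg/kg.

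The 11 and 8 members with an unadjusted p under 0.05 at the lowest doses depended on single arrays. Without control Biological Rep 1 the counts at 0.1 and 1 mg/kg were 21 and 15 of 37, and without control Biological Rep 3 they were 4 and 4. Without Biological Rep 2 at 0.1 mg/kg the first was 4, and without Biological Rep 1 at 1 mg/kg the second was 2. The share of all genes with an unadjusted p under 0.05 was not counted in these refits. The shifts are thus not shown to be particular to the members. The adjusted test called 0 members in each of these fits. Control Biological Rep 1 had the lowest thick limb mean of the controls, at 10.50, and Biological Rep 3 the highest, at 11.39.

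**Figure D3:**
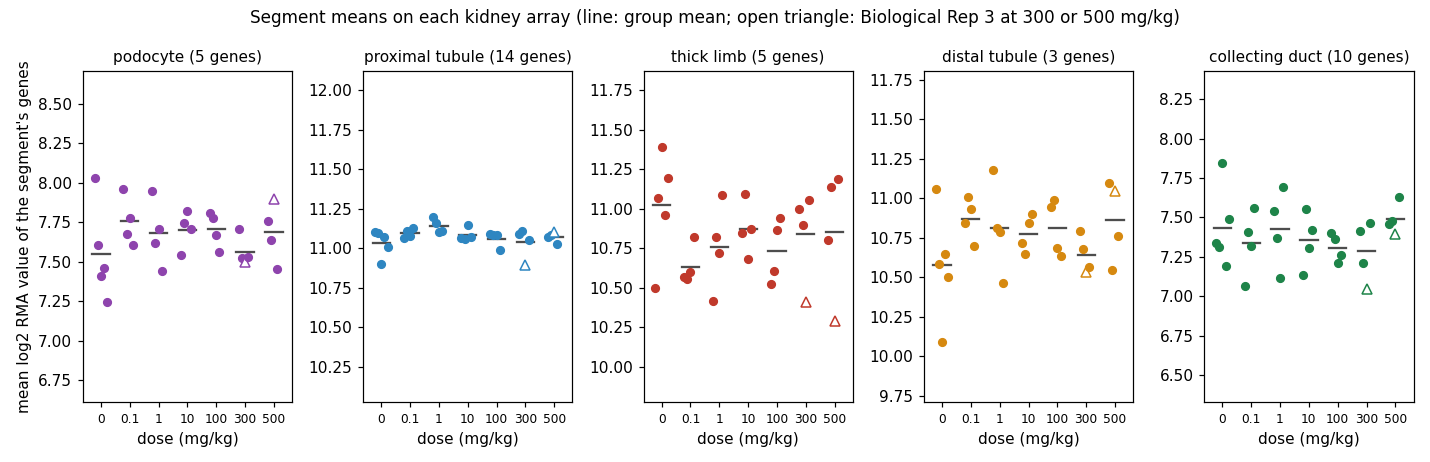
Mean log2 RMA value of a segment's measured members on each kidney array (points, 1 per array) by dose in mg/kg, with group means as lines and Biological Rep 3 at 300 and 500 mg/kg as open triangles. Thick limb means ran from 10.29 to 11.39 across arrays, and both triangles lie at the bottom of that panel.

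Other genes of the same segments, listed from general knowledge of the nephron, gave 0 calls at any dose as well. At 500 mg/kg medians were 0.04 over 5 other podocyte genes, 0.09 over 25 other proximal tubule genes, -0.04 over 12 other thick limb genes, 0.04 over 11 other distal tubule genes and 0.08 over 14 other collecting duct genes, with 0.02 over all genes tested. The gene with the smallest p in each was Plce1 at 0.18 (adjusted p = 0.694), Slc16a9 at -0.45 (adjusted p = 0.204), Cldn10 at -0.16 (adjusted p = 0.539), S100g at -0.31 (adjusted p = 0.385) and Tmem213 at 0.35 (adjusted p = 0.238). Slc16a9, a carnitine efflux carrier, was also at -0.48 at 300 mg/kg (adjusted p = 0.670). Among 8 measured genes that respond to aldosterone or vasopressin the median was 0.13, and Cftr, a chloride channel, had the smallest p at -0.70 (adjusted p = 0.472).

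Lists of other cell types also held 0 calls at 500 mg/kg. Their medians were 0.82 over 12 adipose genes (Cidea at 1.82, adjusted p = 0.618), -0.56 over 3 hepatocyte genes (Alb at -0.96, adjusted p = 0.752), -0.13 over 2 adrenal genes (Hsd3b1 at -0.39), 0.085 over 3 erythroid genes, with Ahsp itself at that value, 0.07 over 9 endothelial and stromal genes (Kdr at 0.19), -0.08 over 8 macrophage and lymphocyte genes (Ptprc at -0.35), 0.15 over 7 tubule injury genes (Clu at 0.32, adjusted p = 0.385) and -0.06 for Myh1, the single skeletal muscle gene measured. The adipose and hepatocyte values follow the 3 arrays named above, and their part in the members' values was not tested.

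In liver the 20 measured members gave a background for the kidney values. At 300 mg/kg 0 of 20 were called by limma, where 0.0266% of all genes tested in liver were, and 1 had an unadjusted p under 0.05, where 7.89% of all genes did (Ggt1, at -0.37, adjusted p = 0.539). At 500 mg/kg 0 of 20 were called, where 0.958% of all genes were, and 0 had an unadjusted p under 0.05, where 13.9% of all genes did. The difference between organs, the kidney change minus the liver change at 500 mg/kg, was called by limma for 0 members, where 0.119% of all genes were, and 1 member had an unadjusted p under 0.05, where 8.49% of all genes did. That member was Slc4a1, the anion exchanger of acid-secreting cells and of red cells, at 0.93 (SE 0.36, adjusted p = 0.401), on the probe set that was brighter over both organs. Slc4a1 was at 7.40, 7.58, 7.39 and 7.68 in kidneys at 500 mg/kg, against 6.997, 6.95, 8.22, 6.97 and 7.49 in control kidneys, with a change in kidney of 0.19 (adjusted p = 0.843). In liver the same probe set was at 4.44, 3.59, 4.17 and 3.72 at 500 mg/kg, against 4.84, 4.06, 4.72, 5.37 and 4.61 in control livers, a change of -0.74. The difference thus came mostly from low liver signals, and the other probe set of Slc4a1 gave 0.04 in kidney and 0.06 in liver, a difference of -0.02 (SE 0.19). Next came Slc12a3 at 0.44 (SE 0.22, adjusted p = 0.598).

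The members varied between kidneys within a dose group more than most genes did. The residual SD, the spread of arrays around their own dose group's mean, had a median of 0.32 in the thick limb, 0.27 in the distal tubule, 0.25 in the collecting duct, 0.21 in the podocyte and 0.18 in the proximal tubule, beside 0.14 over all genes tested. Aqp4 varied most, with a residual SD of 0.73 and values from 4.29 to 7.98 over the 29 kidneys. Slc12a1 had 0.46, and Miox and Lrp2 had 0.05 and 0.08. These spreads set the widths of the intervals given above.

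Some members of a segment varied together. Of 8 pairs from the same segment 5 passed. Over all pairs of measured members the median r was 0.75 within the thick limb (10 of 10 above 0) and 0.58 within the podocyte (10 of 10). It was 0.62 within the distal tubule (3 of 3), 0.30 within the collecting duct (40 of 45) and 0.12 within the proximal tubule (59 of 91). Between segments the median r ran from -0.60 (thick limb with distal tubule) to 0.56 (podocyte with distal tubule, 15 of 15 above 0). A high r was thus not confined to members of the same segment. In all, 12 marker pairs were compared on deviations from the dose group's mean over the 29 kidney arrays, by permutation with 100000 resamples and adjustment over the 12 pairs. Deviations were shuffled over all 29 arrays without regard to dose group. Since 7 group means had been removed, these p-values can be too small. Umod and Slc12a1 had r = 0.938 and rho = 0.941 (permutation p = 1e-05 and 1e-05, the smallest they can give, adjusted p = 0.00012 for both), and r = 0.922 without the 2 arrays farthest from the median of Umod. Nphs1 and Podxl had r = 0.563 and rho = 0.474 (permutation p = 0.00149 and 0.0103, adjusted p = 0.00358 and 0.031), and 0.504 without the farthest arrays. That last r was 0.122 when both Biological Rep 3 arrays were also left out and 0.185 after quantile normalization, so the size of this relation rests on few arrays. Lrp2 and Cubn, partners in protein uptake, had r = 0.527 and rho = 0.447 (permutation p = 0.00266 and 0.0159, adjusted p = 0.00532 and 0.0317), and 0.485 without them. Scnn1b and Scnn1g, subunits of a single channel, had r = 0.599 and rho = 0.515 (permutation p = 0.00052 and 0.00478, adjusted p = 0.00208 and 0.0191), and 0.586 without them.

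Nphs1 with Podxl and Lrp2 with Cubn no longer passed on rho without both Biological Rep 3 arrays (permutation, adjusted p = 0.162 and 0.0709). Some pairs held less well. Slc12a3 and Calb1 had r = 0.644 and rho = 0.457 (permutation p = 0.0002 and 0.0133, adjusted p = 0.0012 and 0.0317), but r was 0.355 without the 2 farthest arrays, so the size of that relation rests on them. Aqp2 and Aqp3, the apical and basolateral water channels of the same cells, had r = 0.395 and rho = 0.399 (permutation p = 0.0338 and 0.0326) and did not pass after adjustment (adjusted p = 0.058 and 0.0558). Slc34a1 and Slc5a2, both of the early proximal tubule, had r = 0.365 and rho = 0.335 (permutation p = 0.0517 and 0.0768, adjusted p = 0.0689 and 0.102). Slc4a1 and Atp6v1b1, both of acid-secreting cells, had r = 0.133 and rho = 0.142 (permutation p = 0.496 and 0.46).

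Of the 4 pairs from different segments, Umod and Aqp2 passed, with r = 0.578 and rho = 0.566 (permutation p = 0.00099 and 0.00167, adjusted p = 0.00297 and 0.01), and r was 0.551 without the farthest arrays. Slc34a1 and Umod ran in opposite directions without passing (r = -0.379, rho = -0.357, permutation p = 0.0419 and 0.0585, adjusted p = 0.0628 and 0.0878). Slc34a1 and Aqp2 had r = -0.293 (permutation p = 0.121), and Nphs1 and Slc34a1 r = 0.172 (permutation p = 0.372).

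A pattern that followed Umod cut across the proximal tubule. Umod was set against each of the other 36 measured members in the same way, a family chosen after the pairs had been seen, and no other member was set against all others in this way. After adjustment over the 36, 23 passed on Pearson's r, 10 of them positive and 13 negative. Over all 11203 other genes tested, r with Umod ran from -0.908 to 0.969. How many of those genes would pass was not counted, so the 23 are not shown to be particular to nephron markers. The shuffles again ignored dose groups, so the count of 23 can be too high. Members near the threshold are Egf and Scnn1b (permutation, adjusted p = 0.0243 and 0.0383). All 4 other thick limb members were positive, from Slc12a1 at 0.938 to Egf at 0.449, but Egf had 0.253 and no longer passed without both Biological Rep 3 arrays (permutation, adjusted p = 0.266). Of the 5 podocyte members 4 passed and were negative, with Ptpro at -0.718, and all 3 measured distal tubule members were negative, with Calb1 at -0.642.

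Proximal tubule members divided. Slc3a1, which in rat is most abundant in the straight end of the proximal tubule, had r = 0.931 and rho = 0.851 with Umod (permutation p = 1e-05 and 1e-05, adjusted p = 5.14e-05 and 4.5e-05), and r was 0.879 without the 2 farthest arrays. Ggt1, the brush border gamma-glutamyltransferase, which is likewise strongest in the straight part, had r = 0.889 and rho = 0.818, and 0.822 without those arrays. Aqp1 had r = 0.716 and rho = 0.628. Slc7a9, the light chain that pairs with the product of Slc3a1 and is strongest in the early tubule, had r = -0.770 and rho = -0.833 (permutation p = 1e-05 and 1e-05, adjusted p = 5.14e-05 and 4.5e-05), and r was -0.701 without the farthest arrays. Slc5a2 had r = -0.764, Slc4a4 -0.756, Amn -0.643 and Dpep1 -0.497. The other 6 proximal members did not pass: Slc34a1 at -0.379, Lrp2 at -0.245, Cubn at -0.131, Slc5a1 at -0.027, Miox at 0.036 and Slc9a3 at 0.123. Slc5a1 of the late tubule and Slc34a1 of the early tubule are both among these 6. The part that position along the tubule has in these values was not tested.

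Single arrays show the split. Control Biological Rep 3 had the highest Umod of all kidneys, at 13.79, with Slc3a1 at 14.14 and Slc7a9 at 10.49, the highest and the lowest value of those genes among the 29. Control Biological Rep 1 had Umod at 12.88, Slc3a1 at 13.49 and Slc7a9 at 11.39, the highest Slc7a9 of all. Both are untreated kidneys, and the lowest Umod and Slc3a1 of all were on Biological Rep 3 at 500 mg/kg, at 12.37 and 13.20.

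**Figure D4:**
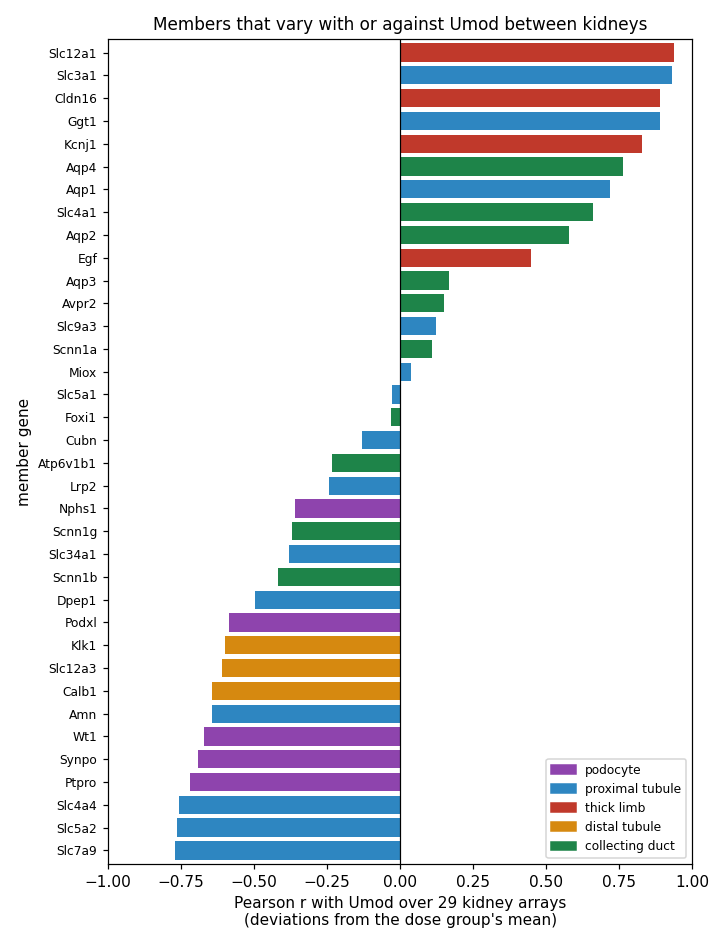
Pearson r with Umod (horizontal axis) for each of the other 36 measured members over 29 kidney arrays, on deviations from the dose group's mean, coloured by segment. Thick limb bars all point right, distal tubule and podocyte bars all point left, and proximal tubule bars run from Slc7a9 at -0.770 to Slc3a1 at 0.931.

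In the collecting duct, Aqp4 (r = 0.761), Slc4a1 (r = 0.658) and Aqp2 (r = 0.578) ran with Umod, and Scnn1b (r = -0.416) ran against it. The 3 measured erythroid genes had r below 0 with Umod (median -0.30, or -0.13 without both Biological Rep 3 arrays). The part that red cell RNA has in the value of Slc4a1 was not tested. Without both Biological Rep 3 arrays 24 of the 36 passed, 22 of them among the 23, and 34 of 36 kept their sign. The 12 adipose genes had r below 0 with Umod over all arrays (median -0.55), and 6 of 12 without those arrays (median 0.03), while Slc12a1 and Slc3a1 were at 0.935 and 0.878 and Slc7a9 at -0.845 there.

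Genes outside the members repeated this in part, given as a description with no test. All 12 other thick limb genes had r above 0 with Umod (median 0.67), led by the transcription factor Irx1 at 0.969, where 5420 of 11203 other genes tested did (median -0.02). Of 25 other proximal tubule genes 6 were above 0 and 19 below. Slc22a2, the organic cation transporter OCT2, was at 0.918, Mme, the brush border peptidase neprilysin, at 0.906, and Anpep, aminopeptidase N, at 0.899. Slc5a12, a lactate cotransporter, was at -0.742, Slc13a1, a sulfate cotransporter, at -0.741, and Slc22a6, the organic anion transporter OAT1, at -0.732. Of 14 other collecting duct genes 9 were above 0 (median 0.17), from Kcne1 at -0.670 to Krt19 at 0.869. The negative r of every podocyte and distal member was not repeated in full: of 5 other podocyte genes 2 were above 0 (median -0.01, Cd2ap at 0.703), and of 11 other distal tubule genes 3 were (median -0.12, Stk39 at 0.375). These genes share the arrays and the normalization, and genes are not independent replicates.

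**Figure D5:**
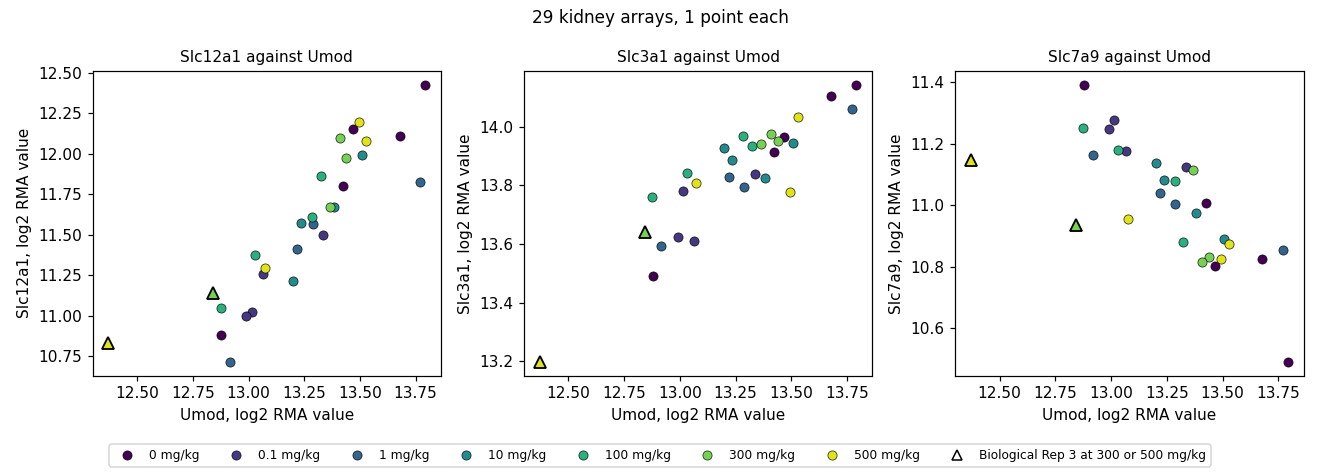
Log2 RMA values of Slc12a1, Slc3a1 and Slc7a9 (vertical axes) against Umod (horizontal axes) on 29 kidney arrays, coloured by dose, with Biological Rep 3 at 300 and 500 mg/kg as triangles. Slc12a1 and Slc3a1 run with Umod and Slc7a9 against it, with control kidneys spread from 12.88 to 13.79 on the Umod axis.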

How the data were processed

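The deposited table holds log2 values that the authors made with RMA, per the submitters' processing notes, with no version named. The values ran from 1.75 to 14.9 over 31099 probe sets and 58 arrays, as log2 values do. The sources used here do not say whether the organs were normalized jointly. Probe sets were named from the platform annotation, and those with exactly 1 symbol were used. A probe set counted as measured in an organ if at least 4 of that organ's arrays put it over their 40th percentile, and the brightest one stood for its gene.

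Each dose was tested against control with limma 3.58.1 in R 4.3.3 (moderated tests with a trend over intensity), in a single fit per organ of 29 arrays. P-values are two-sided and Benjamini-Hochberg adjusted over all genes, with calls at an adjusted p under 0.05. The organ difference came from a fit of 14 groups. A change is a group's mean minus the control mean, in log2 units. The fit was tested on simulated data, drawn independently for each gene from a normal distribution. Those data held no outlying arrays and no genes varying together, so the test does not cover these features of the real arrays.

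Replicate numbers were not used to pair the samples in the main fits. Same-numbered kidney arrays had a mean correlation of 0.03 (-0.36 to 0.67) in their deviations, with 25 of 84 pairs over 0.1. Other kidney arrays had a mean of -0.008. A low mean does not show that no numbers were paired. Liver and kidney arrays of the same dose and number had a mean correlation of 0.12, with 20 of 29 over 0.1, so not every pair was, and a random block of dose and number was an alternative for the organ difference. The labels name no batch, and p-values measure the spread between these samples.

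The members, the gene lists and the tests were chosen with earlier results of these data known. Genes were named by a rule: per segment the members ranked first and second by p at 500 mg/kg and first at 300 mg/kg, the 2 smallest for the organ difference, the 5 largest and 5 smallest organ differences of controls, and in each other list the gene ranked first by p at 500 mg/kg. Others were singled out after their values were seen. Alternatives were other filters (none, 60th percentile), other uses of a gene's probe sets (their mean, each alone) and a fit of the compared groups alone. Further ones were no intensity trend, weights for array quality, further normalization of each organ (quantile, cyclic loess), a replicate block and a linear dose. Other fits left out each array of the compared groups in turn, or the arrays with foreign transcripts.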

Additional observations from a re-analysis of the deposited data

Results flagged for a closer look

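Of 77 groups of 4 or 5 kidney arrays examined for a single array far from the rest, 9 held one. Chance flags about 1 group in 20 when groups are independent. These groups share arrays, and some of their genes vary together, so the 9 cannot be judged against that rate. At 300 mg/kg, Biological Rep 3 lay apart for Umod at 12.84, Slc3a1 at 13.64 and Aqp1 at 12.10, against at least 13.37, 13.94 and 12.35 on the other 3 arrays in that order. This is 1 of the arrays with adipose transcripts, whose part in these values was not tested. At 300 mg/kg the podocyte mean was 7.71 on Biological Rep 1, against at most 7.53 on the others. At 0.1 mg/kg the thick limb mean was 10.82 on Biological Rep 4, against at most 10.60. The proximal tubule mean was 11.15 on Biological Rep 3 at 10 mg/kg, against at most 11.07, and 10.99 on Biological Rep 4 at 100 mg/kg, against at least 11.08. Among controls, Biological Rep 1 was at 9.50 for Synpo, against at most 8.94, and at 11.49 for Klk1, against at most 11.10.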

How the results depend on the processing

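By limma, 0 members were called in any kidney dose, the dose trend, liver at 300 and 500 mg/kg or the organ difference at 500 mg/kg. This held under every alternative run and with each array of the compared groups left out. This includes the replicate block (0 members at each dose), though the samples were not shown to be paired by replicate number. In the main fit 36 members were called higher in control kidney than in control liver, where 41.5% of all genes were. The count ran from 34 to 37 under the alternatives, where the share of all genes was not counted. Members that passed the filter through kidney alone had to differ, so this count describes the labels. Slc12a1 at 500 mg/kg, not called, had 0.0511 in place of -0.27 when control Biological Rep 2 was left out together with both Biological Rep 3 arrays, an alternative chosen after seeing the data. Leaving out 1 array moved 12 of the 15 named kidney changes, none of them called, by over 1.5 times. Over all genes, calls at 500 mg/kg numbered 3, but ran from 0 to 69 (array quality weights) under the alternatives and were 34 without control Biological Rep 1. At 300 mg/kg they numbered 3, and from 0 to 4 under the alternatives. At 0.1 mg/kg they numbered 0, but 6 with array quality weights. The causes were not tested. With quantile normalization and without the Biological Rep 3 arrays, the 12 pairs kept their side of the threshold on Pearson's r, but not all did on rho. Members near the floor, such as Scnn1a and Slc5a1, are limited by signal over background.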
